A study of Mus musculus with 20 samples.

Results

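The constitutive proteasome genes of mouse CD8 T cells were followed from rest through 3 days of stimulation. The genes were those whose single annotated symbol begins with Psma, Psmb, Psmc, Psmd, Psme, Psmf or Psmg and a number, without the inducible genes Psmb8, Psmb9, Psmb10, Psme1 and Psme2, and the brightest probe set stood for each gene. This rule found 42 of the 8251 genes that the array names by a single symbol. They comprised 7 genes of the alpha ring and 7 of the beta ring of the 20S core, 6 ATPases and 11 non-ATPase subunits of the 19S regulatory particle, 7 assembly chaperones and 2 activators. The same pattern of letters also brought in Psmc3ip and Psme3ip1, which are named for proteins that bind a subunit and are not subunits themselves. Of the 42 genes, 41 passed a filter on dim signals and were tested among 6279 genes in all. Psmc4, an ATPase, rose above the 40th percentile of its array on only 2 of the 13 replicated arrays and was not tested.

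The cells were CD8 T cells of C57Bl6 mice aged 6 to 8 weeks that carry the OT-1 T cell receptor transgene, so that nearly all share a receptor for an ovalbumin peptide on H-2Kb. CD44lo cells were enriched from lymph nodes by removing other cells, and the naive group (3 arrays) was harvested at 0 h with no stimulating agent. All stimulated cultures received latex beads coated with the H-2Kb and peptide complex and with B7-1 (Ag-B7, the antigen and costimulatory signals) together with human recombinant IL-2. The Ag-B7 group had no further addition, and the others also received murine recombinant IL-12, universal type I IFN (IFNa/b) or trichostatin A (TSA, an inhibitor of histone deacetylases). At 48 h there were 4 arrays of Ag-B7, 3 of Ag-B7 with IL-12 and 3 of Ag-B7 with IFNa/b. At 24 h and at 72 h each of these groups had 1 array, as did Ag-B7 with TSA at 72 h. The labels call the replicates biological without naming separate mice, so the p-values measure the spread between these samples.

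The proteasome is the protease that degrades ubiquitin-tagged proteins in the cytosol and nucleus. Its 20S core is a barrel of stacked alpha and beta rings, in which Psmb5, Psmb6 and Psmb7 encode the subunits with chymotrypsin-like, caspase-like and trypsin-like activity, and the 19S particle binds, deubiquitinates, unfolds and feeds in the substrates. In lymphocytes Psmb8, Psmb9 and Psmb10 encode the immunoproteasome subunits that can take the places of Psmb5, Psmb6 and Psmb7, and the PA28 proteins and PA200 (Psme4) cap the core in place of the 19S particle.

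RefSeq promoter windows were matched to 35 of the 42 genes, giving 38 windows on 13 chromosomes because 3 genes have several. Only the 250 bases before the start on GRCm38.p6 were used, for the motifs, searched on both strands, and for the GC content. The motif CCGGAAG, a core bound by ETS-family factors, was present in 14 of the 38 windows (36.8%), against 6.91% of all 32851 windows of that length and 8.98% of the 21262 windows of protein-coding genes. The motif TGACNNNGC, the core of the element bound by the proteasome gene regulators NFE2L1 and NFE2L2, was present in 5 (13.2%), against 10.2% and 10.4%. CCAAT was found in 36.8% of the members' windows, 33.8% of all windows and 35.4% of those of protein-coding genes, and GGGCGG in 52.6%, 32.7% and 42.6%. The median GC content was 58.0% in the members' windows, 52.4% in all windows and 55.6% in those of protein-coding genes and its part in the motif shares was not tested. A match describes these letters only and was not tested as a binding site.

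The 250 bases before the start are shown for 6 genes, written 5′ to 3′ on the gene's strand with CCGGAAG and TGACNNNGC, or their reverse complements, in capitals. The gene with a single window and the largest rise in each subunit and chaperone role was kept only if it held either motif. Psma4, the largest riser of the alpha ring, held neither and is not shown, and Psmb6 was added by name. Psmb5 (chr14:54617996-54618245, minus strand) and Psmb6 (chr11:70525107-70525356, plus strand) are the catalytic subunits with the larger rises. Psmc1 (chr12:100109952-100110201, plus strand), Psmd12 (chr11:107479278-107479527, plus strand) and Psmg1 (chr16:95990961-95991210, minus strand) had the largest rises among the ATPases, the non-ATPase subunits and the chaperones. Psmg3 (chr5:139826895-139827144, minus strand) was the one gene called lower after stimulation.
Psmb5: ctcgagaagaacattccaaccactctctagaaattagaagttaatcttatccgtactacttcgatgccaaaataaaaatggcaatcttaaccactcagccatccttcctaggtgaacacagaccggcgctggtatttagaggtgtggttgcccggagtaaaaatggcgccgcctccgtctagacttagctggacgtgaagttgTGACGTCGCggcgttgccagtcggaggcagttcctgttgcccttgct
Psmb6: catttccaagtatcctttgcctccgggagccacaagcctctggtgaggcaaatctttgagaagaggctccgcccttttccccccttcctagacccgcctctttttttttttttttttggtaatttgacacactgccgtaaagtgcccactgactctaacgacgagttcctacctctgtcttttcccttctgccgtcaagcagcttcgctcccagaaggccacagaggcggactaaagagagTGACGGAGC
Psmc1: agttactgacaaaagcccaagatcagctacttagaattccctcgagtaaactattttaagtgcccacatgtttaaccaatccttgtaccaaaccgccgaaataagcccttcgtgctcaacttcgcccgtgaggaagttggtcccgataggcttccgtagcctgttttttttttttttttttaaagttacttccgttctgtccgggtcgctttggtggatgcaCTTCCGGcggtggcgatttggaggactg
Psmd12: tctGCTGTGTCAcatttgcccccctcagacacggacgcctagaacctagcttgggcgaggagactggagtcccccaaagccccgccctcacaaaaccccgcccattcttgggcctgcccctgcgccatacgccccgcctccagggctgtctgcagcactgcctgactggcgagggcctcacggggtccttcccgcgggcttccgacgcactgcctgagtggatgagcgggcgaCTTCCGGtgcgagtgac
Psmg1: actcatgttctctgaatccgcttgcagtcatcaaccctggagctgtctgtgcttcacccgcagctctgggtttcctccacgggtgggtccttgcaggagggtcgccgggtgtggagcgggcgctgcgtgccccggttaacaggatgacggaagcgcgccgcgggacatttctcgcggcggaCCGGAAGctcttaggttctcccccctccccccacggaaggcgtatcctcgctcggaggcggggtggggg
Psmg3: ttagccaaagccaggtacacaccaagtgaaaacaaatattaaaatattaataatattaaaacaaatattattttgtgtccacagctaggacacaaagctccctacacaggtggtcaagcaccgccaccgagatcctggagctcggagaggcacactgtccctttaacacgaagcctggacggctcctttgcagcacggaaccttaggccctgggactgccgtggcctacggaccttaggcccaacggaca
Psmb5 held TGACNNNGC at 47 to 39 bases before the start and Psmb6 held it at 9 to 1 bases before. Psmc1, Psmd12 and Psmg1 held CCGGAAG at 28 to 22, 17 to 11 and 69 to 63 bases before the start, and Psmd12 also held TGACNNNGC at 247 to 239. Neither motif was found in the Psmg3 window shown. The largest risers were kept only if they held a motif, so their contrast with Psmg3 is not a result.

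After 48 h of Ag-B7, nearly the whole constitutive proteasome stood above its naive level. Of the 41 genes tested, 35 rose and 1 fell (limma, Benjamini-Hochberg adjusted p below 0.05 over 6279 genes). Among all genes tested 26.1% were called higher (1640 genes) and 35.6% lower (2236 genes). That split depends on the scaling, with 2259 higher and 1407 lower when arrays were centred on their medians, and 4026 and 57 when they were scaled to spike-in controls. The median log2 difference of the 41 genes was 1.48, beside -0.23 for all genes, a gap of 1.71. The gap was 1.46 with quantile normalization and 1.40 with naive replicate 1 as the only naive array. Median centring and spike-in scaling shift whole arrays and cannot move it. A difference of at least 2-fold upward was found for 30 of the 41 genes, against 17.6% of all genes. All 4 Ag-B7 arrays lay above all 3 naive arrays for 34 of the 41, against 24.4% of all genes. All values are log2(intensity + 46.4), an arbitrary scale on which 1 unit is a doubling, and errors after ± are standard errors of the fit unless named SD. In these bulk samples a change in RNA per cell cannot be told apart from a change in the number of cells of a type.

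**Figure D1:**
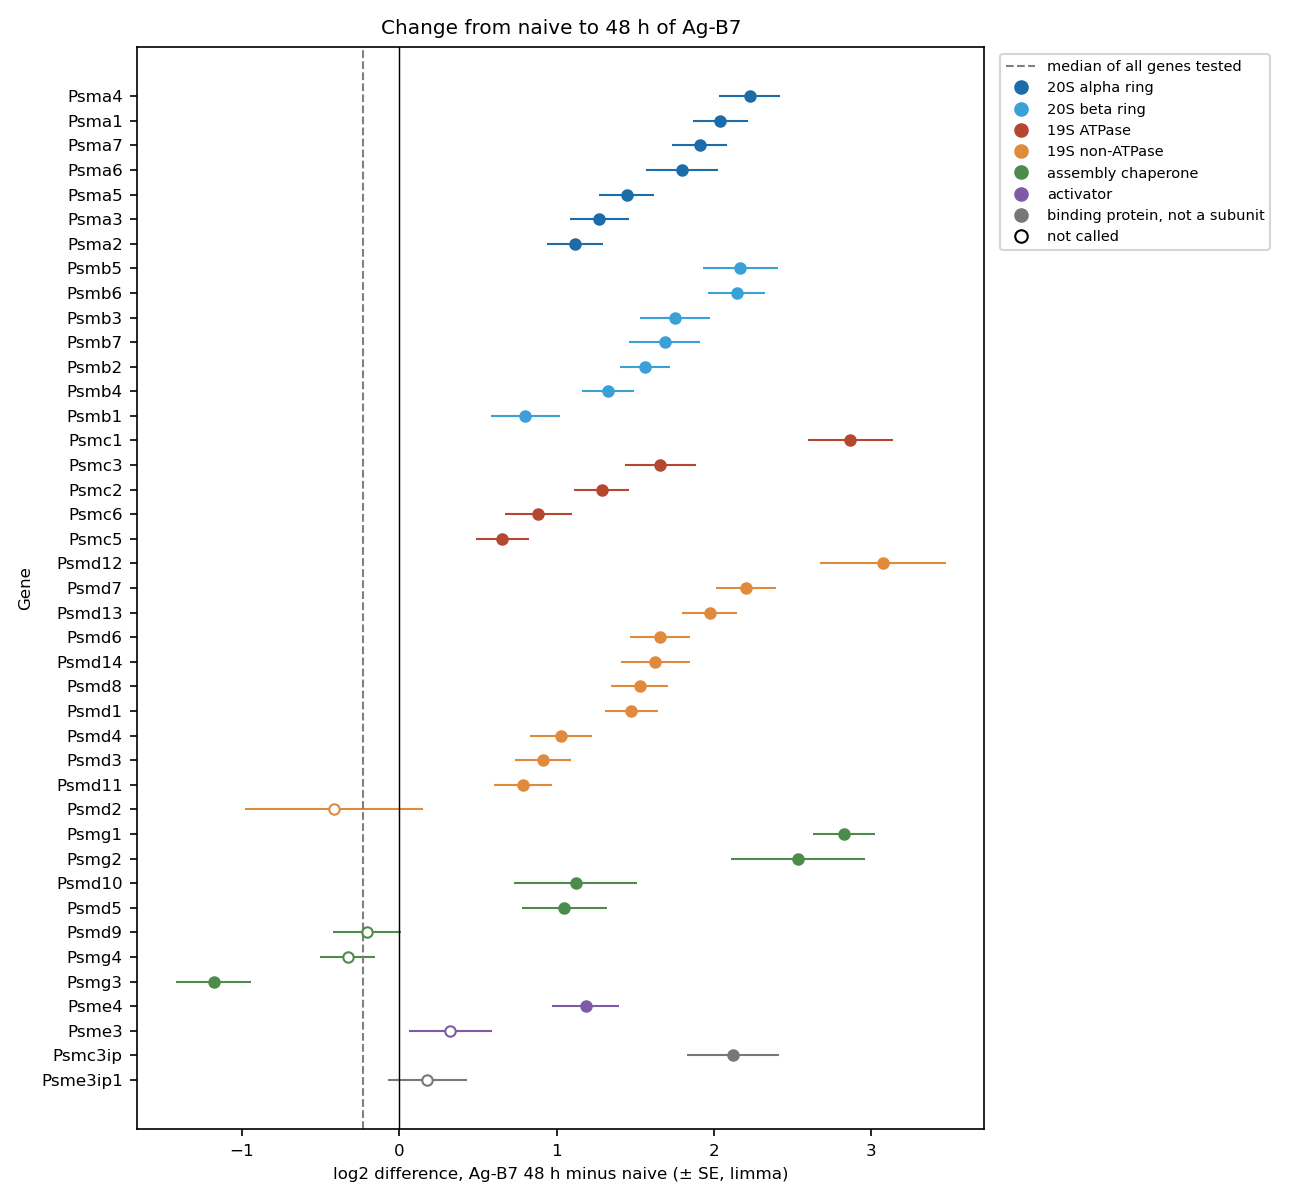
Log2 difference between Ag-B7 at 48 h (4 arrays) and naive cells (3 arrays) for the 41 genes tested, on the horizontal axis, with genes on the vertical axis grouped and coloured by role. Points are estimates and bars standard errors, open points were not called, and the dashed line is the median of all genes at -0.23. All points of the 20S rings lie to the right of 0, and Psmg3 is the one filled point to the left.

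All 7 alpha ring genes and all 7 beta ring genes rose, with median log2 differences of 1.80 and 1.69. Psma4, a structural alpha subunit, read 11.91, 11.12 and 11.91 on the naive arrays and 13.96, 13.84, 13.75 and 13.95 on the Ag-B7 arrays. This was a 4.68-fold rise (log2 difference 2.23 ± 0.20, limma adjusted p = 1.46e-07), the largest of the ring. The smallest in the alpha ring was that of Psma2, at 13.67, 12.84 and 13.24 before and 14.44, 14.31, 14.36 and 14.36 after (1.12 ± 0.18, adjusted p = 7.74e-05 by limma). Even for Psma2 the groups did not overlap.

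The 3 constitutive catalytic subunits rose by more than 3-fold. Psmb5 read 11.54, 10.47 and 11.09 in naive cells and 13.41, 13.15, 12.90 and 13.35 after Ag-B7, a 4.49-fold rise (2.17 ± 0.24, limma adjusted p = 1.63e-06). The dimmer of its 2 probe sets went the other way (-1.89 ± 0.39, limma adjusted p = 0.000656), and with the mean of both probe sets the Psmb5 difference was 0.14 and was not called. Psmb6 read 11.21, 10.75 and 11.13 before and 13.07, 13.21, 13.38 and 13.03 after, a 4.42-fold rise (2.14 ± 0.18, limma adjusted p = 1.01e-07). For Psmb7 the naive values were 11.40, 10.33 and 11.40 and the Ag-B7 values 12.91, 12.71, 12.57 and 12.75, a 3.22-fold rise (1.69 ± 0.22, limma adjusted p = 1.17e-05). In each of the 3 genes the groups were clearly apart and naive replicate 2 was the lowest array.

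Among the noncatalytic beta subunits, Psmb3 rose by 1.75 ± 0.22, Psmb2 by 1.56 ± 0.16 and Psmb4 by 1.33 ± 0.17. A dimmer Psmb4 probe set fell by 1.61 (limma adjusted p = 0.0128), and with the mean of its probe sets Psmb4 was -0.22 and not called. Psmb1, also noncatalytic, had the smallest rise of the ring, from 12.59, 11.53 and 12.33 to 13.15, 13.005, 12.70 and 12.94 on the 4 Ag-B7 arrays (0.80 ± 0.22, limma adjusted p = 0.00502). Its lowest Ag-B7 array lay close above its highest naive array, and it was not called with the mean of its probe sets (0.23).

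The 19S particle followed the core, with 15 of its 16 tested genes higher and a median log2 difference of 1.50. Psmc1, one of the ATPases that unfold substrates, read 9.82, 8.54 and 9.80 in naive cells and 12.33, 12.50, 12.08 and 12.10 after Ag-B7. The rise was 7.29-fold (2.87 ± 0.27, limma adjusted p = 3.18e-07). Psmc5, another ATPase, read 11.01, 10.89 and 10.78 before and 11.56, 11.51, 11.55 and 11.58 after (0.66 ± 0.17, limma adjusted p = 0.00317). With the mean of a gene's probe sets the calls of Psmc5 (0.40, limma adjusted p = 0.167) and of the non-ATPase gene Psmd11 (0.28, limma adjusted p = 0.165) were lost, and the 3 probe sets of Psmd11 differed by 0.78, 1.82 and -1.77. The 5 ATPases tested, whose products belong to a single ring, thus spanned 1.58-fold to 7.29-fold.

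Psmd12, a scaffold subunit of the 19S lid, had the largest rise of all members with all naive arrays in the fit. It read 9.39, 6.97 and 9.28 in naive cells and 11.77, 11.50, 11.58 and 11.63 after Ag-B7, an 8.41-fold rise (3.07 ± 0.40, limma adjusted p = 1.00e-05), and 75 of the 6279 genes had a larger one. Naive replicate 2 was far below the other naive arrays for this gene, and without it the rise was 2.28 (limma adjusted p = 8.19e-08), below those of Psmg1 (2.98) and Psmc1 (2.44). Without that array the rise of Psmc6 was 0.53 (limma adjusted p = 0.00429) in place of 0.88, and that of Psmb1 was 0.49 (limma adjusted p = 0.0258) in place of 0.80. Psmd7 (2.20 ± 0.19) and Psmd14 (1.63 ± 0.22), which encode the partners of the lid deubiquitinase, also rose, as did Psmd13 (1.97 ± 0.17) and the ubiquitin receptor gene Psmd4 (1.03 ± 0.20). Psmd2, which encodes a large scaffold subunit of the base, was the one 19S gene not called. Its probe set was dim and scattered, at 6.74, 8.50 and 7.16 in naive cells and 7.39, 6.36, 8.21 and 6.24 after Ag-B7, and the 95% interval of its difference ran from -1.61 to 0.78.

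The assembly chaperones split, with 4 of 7 higher, 1 lower and 2 not called. Psmg1 and Psmg2, which encode the partners of a chaperone that starts the alpha ring, rose by 2.83 ± 0.20 and 2.53 ± 0.42, the latter by 1.83 without naive replicate 2 (limma adjusted p = 0.000176). Psmg1 read 8.87, 9.18 and 8.57 before and 11.50, 11.91, 11.80 and 11.60 after, a 7.10-fold rise (limma adjusted p = 1.04e-08). Psmg3 and Psmg4 encode the partners of another chaperone of the alpha ring. Psmg3 read 10.87, 11.98 and 11.28 before and 10.22, 10.05, 10.39 and 10.12 after (-1.18 ± 0.24, limma adjusted p = 0.000567), and Psmg4 differed by -0.33 ± 0.18 and was not called. Psmg4 was called lower with quantile normalization (-0.53, limma adjusted p = 0.0313) and without naive replicate 1 (-0.51, limma adjusted p = 0.0183). With arrays scaled to their spike-in controls the Psmg3 difference was instead 0.59, not called, and Psmg4 was called higher (1.44). The Psmg3 probe set carries the suffix that the array maker gave to probe sets designed under relaxed rules. The other Psmg3 probe set, which is dimmer, differed by 0.55 ± 0.38 and was not called, and the Psmg3 call was lost with the mean of both (-0.31). The lower Psmg3 value was also lost with only naive replicate 1 as the naive group (-0.67, limma adjusted p = 0.0624).

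Of the chaperones of the 19S base, Psmd5 rose by 1.05 ± 0.27, and Psmd9 differed by -0.20 ± 0.21 and was not called. The only Psmd9 probe set carries the same suffix for relaxed design rules as that of Psmg3. Psmd10 was called (1.12 ± 0.39, limma adjusted p = 0.0197) although its groups overlapped. Its call was lost without naive replicate 2 (0.55, limma adjusted p = 0.147) or without Ag-B7 replicate 2 (0.91, limma adjusted p = 0.066).

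Of the 2 activator genes Psme4 was called and Psme3 was not, and the difference between them was not tested. Psme4, which encodes PA200, read 9.73, 8.93 and 9.81 in naive cells and 10.73, 10.69, 10.69 and 10.58 after Ag-B7 (1.19 ± 0.21, limma adjusted p = 0.000187). Psme3, which encodes the nuclear activator PA28 gamma, read 11.51, 10.76 and 11.29 before and 11.71, 11.14, 11.09 and 12.12 after (0.33 ± 0.26, limma adjusted p = 0.29). Psme3 was called higher with median centring (0.75, limma adjusted p = 0.0393) and with spike-in scaling (2.10, limma adjusted p = 0.000164). The Psme3 groups overlapped at 48 h, and its values at 24 h and 72 h, given further on, lay far apart. Psmc3ip, which encodes a meiotic recombination factor, read 6.15, 6.51 and 6.62 before and 8.80, 8.32, 8.42 and 8.65 after (2.12 ± 0.29, limma adjusted p = 1.62e-05). Its probe set exceeded the 40th percentile of the array on 10 of the 13 replicated arrays, with dim naive values near the floor. Psmc3ip thus passed the filter only through the stimulated groups, which partly sets its call in advance. It is counted among the genes that rose. Psme3ip1 read 10.79, 10.00 and 11.08 before and 10.68, 11.25, 10.53 and 10.75 after (0.18 ± 0.25, limma adjusted p = 0.546).

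Several facts about the naive arrays stand beside these results. Naive replicate 2 held the lowest naive value for 30 of the 41 genes, against 41.2% of all genes. The ratio of the 3' to the 5' actin signal, a sign of RNA quality, was 1.13, 2.06 and 1.61 on naive replicates 1, 2 and 3 and at most 1.15 on the stimulated arrays. With naive replicate 1 as the only naive array, 32 of the 41 genes were still called higher by limma and 0 lower, with a median of 1.16 (17.9% of all genes were then called higher, and 34 members, against 47.0% of all genes, were at an unadjusted p below 0.05). This fit assumes that the lone naive array varies like the arrays of the other groups. On that fit Psmb1 (0.36), Psmc5 (0.54) and Psmd10 (0.37) were no longer called. In the fit with all naive arrays 26.1% of all genes were called higher and 35.6% lower after Ag-B7. The marker counts that follow are to be read beside these shares. Of 11 CD8 T cell genes tested, 2 were called higher (Thy1 and Cd5) and 3 lower (Lat, Cd2 and Cd247), with a median of -0.04. Cd8a stood at 13.36 in naive cells and 13.41 after Ag-B7, Cd8b1 at 14.47 and 14.04, neither called, and Lat at 11.24 and 9.49. Of 7 myeloid and dendritic markers tested, 6 were called lower after Ag-B7 on the deposited scale. The summed intensity of all 10 listed, tested or not, was 14212 to 17527 on the naive arrays and 2468 to 5111 on the Ag-B7 arrays. Ctss made up the largest part of that sum on each of these arrays. It read 13.41, 12.83 and 13.04 before and 11.94, 10.73, 11.05 and 11.36 after. The summed intensity of 2 erythroid and platelet markers was 6105 to 14312 and 282 to 551. Of these, Hba-a1 was called lower (-4.65) and the platelet marker Pf4 was not called (-0.26). Of 6 B cell markers, 3 were called lower (Cd79a, Ms4a1 and Pax5, each at least 2-fold) and 1 higher, H2-Ab1 (2.38), with a median of -1.03. The summed intensity of all 8 listed B cell markers on the array, tested or not and H2-Ab1 included, was 2321 to 4975 on the naive arrays and 1695 to 3022 on the Ag-B7 arrays. Cd4 (-1.83) and all 3 stromal markers tested were also called lower. Klrk1, the only gene of the NK cell list that was tested, was called higher (2.15). Ncr1, of the same list, did not pass the filter. It read 5.91, 6.77 and 7.33 in naive cells and 5.92, 6.11, 6.38 and 5.74 after Ag-B7. The part of these differences in the proteasome result was not tested beyond the fit with naive replicate 1.

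The heatmap of all 20 arrays shows how far the members moved together. Of the 42 genes, 5 were read by probe sets whose suffix marks a shared sequence family (Psma3, Psmb4, Psmb7, Psmc3 and Psmd12), so that related sequences may add to their signal. The Psmb5 probe set carries another suffix, which marks probes shared between transcripts.

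**Figure D2:**
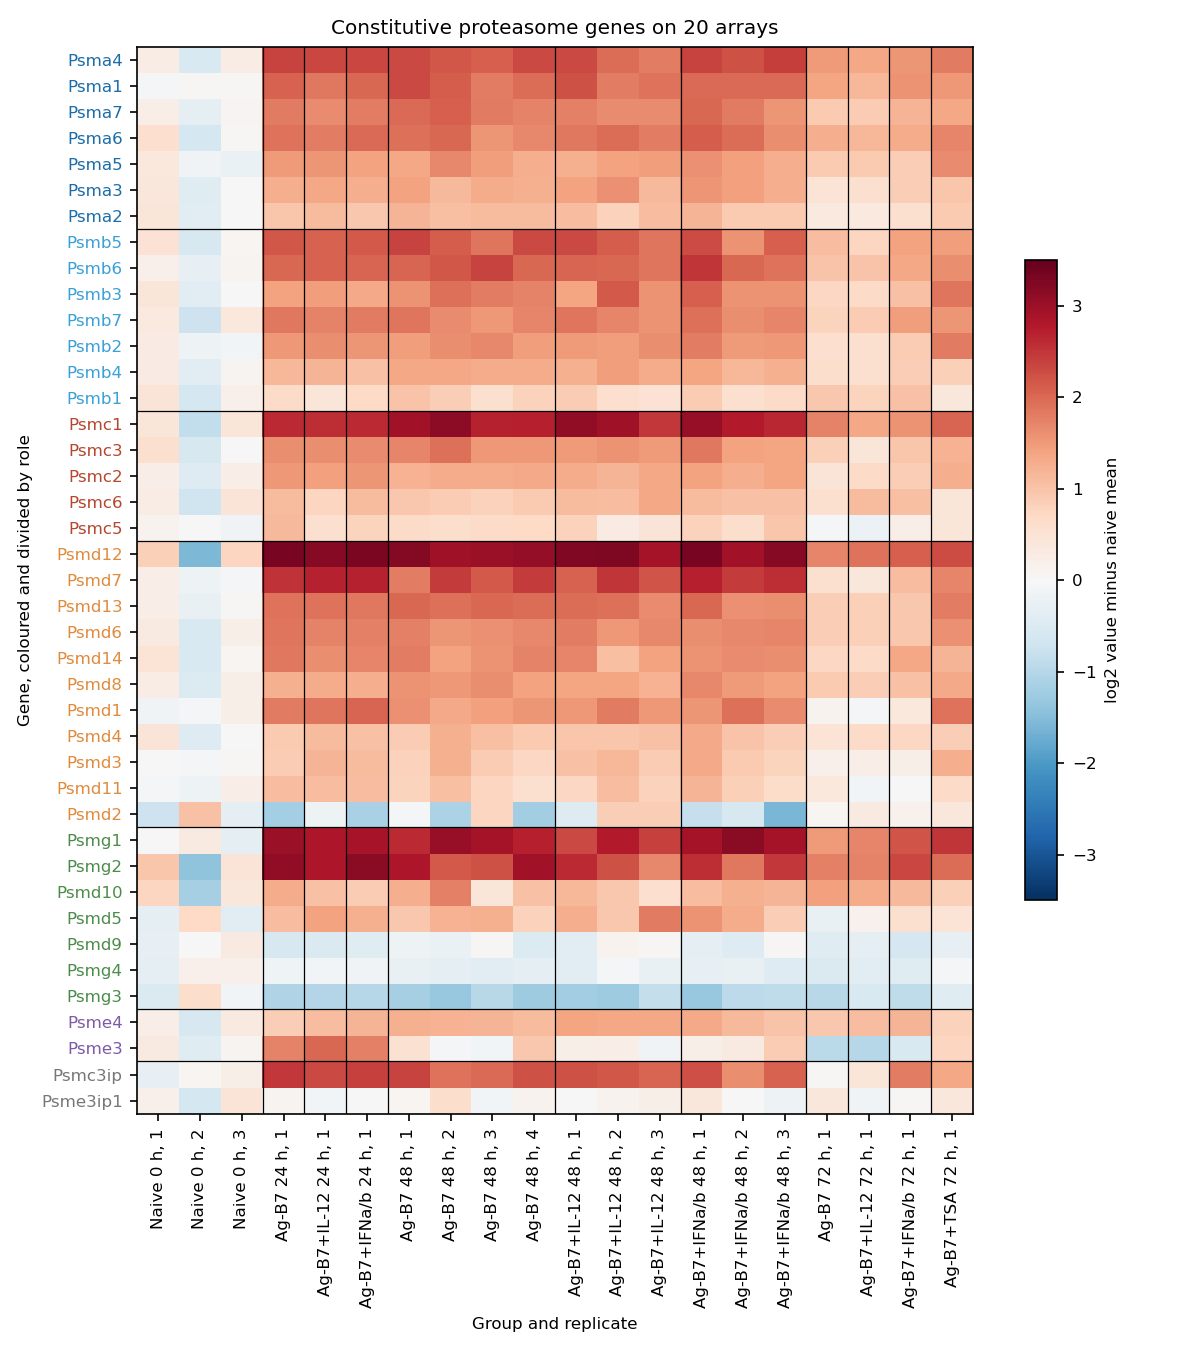
Log2 value minus the gene's naive mean for the 41 genes tested (rows, grouped and coloured by role) on the 20 arrays (columns, by group and replicate). Red is above and blue below the naive mean. The stimulated columns are red in nearly every row except Psmd2, Psmd9, Psmg4, Psmg3, Psme3ip1 and Psme3, with paler colours at 72 h. Psme3 is red at 24 h, mixed at 48 h and blue at 72 h except with TSA.

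The genes of the inducible forms were set beside the constitutive ones. Psmb8 read 13.63, 13.14 and 13.16 in naive cells and 14.33, 14.12, 13.93 and 13.91 after 48 h of Ag-B7, and it rose by 0.76 ± 0.18 (limma adjusted p = 0.00152). Psmb9 read 11.88, 11.75 and 11.52 before and 13.06, 13.20, 12.60 and 12.20 after, and it rose by 1.05 ± 0.25 (limma adjusted p = 0.00192). Psmb10 (-0.34 ± 0.27) and Psme1, a PA28 gene (-0.17 ± 0.17), were not called. With quantile normalization Psme1 was called lower (-0.49, limma adjusted p = 0.00345), and with spike-in scaling both were called higher (Psmb10 1.43 and Psme1 1.60). Psme2 shares its probe set with Psme2b and was not named.

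The ratio of each constitutive catalytic subunit to its inducible counterpart was compared array by array, since centring or scaling an array as a whole leaves it almost as it was. The log2 ratio of Psmb7 to Psmb10 was -1.26 ± 0.64 (SD, n = 3) in naive cells and 0.77 ± 0.45 (SD, n = 4) after Ag-B7, a change of 2.02. The corresponding change was 1.41 for Psmb5 over Psmb8 and 1.10 for Psmb6 over Psmb9. In all 3 pairs the Ag-B7 arrays lay above the naive arrays without overlap (exact permutation p = 0.0286, two-sided, the smallest that 4 against 3 arrays can give). After adjustment over the 15 ratio tests each p was 0.143, above the threshold of 0.05. The Psmb5 over Psmb8 change rests on the brighter Psmb5 probe set. With the mean of each gene's probe sets it was -0.62, while the changes of the other two pairs were the same as before. With IL-12 the changes from naive were 1.54, 1.33 and 2.13 for the same order of pairs, and with IFNa/b 1.15, 0.73 and 2.10 (exact permutation p = 0.1 each, the smallest that 3 against 3 can give). Neither cytokine group was apart from Ag-B7 alone in any of the 3 ratios (exact permutation p from 0.314 to 0.771). A level of one probe set says nothing about the level of another, so only these changes in the ratio are read.

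**Figure D3:**
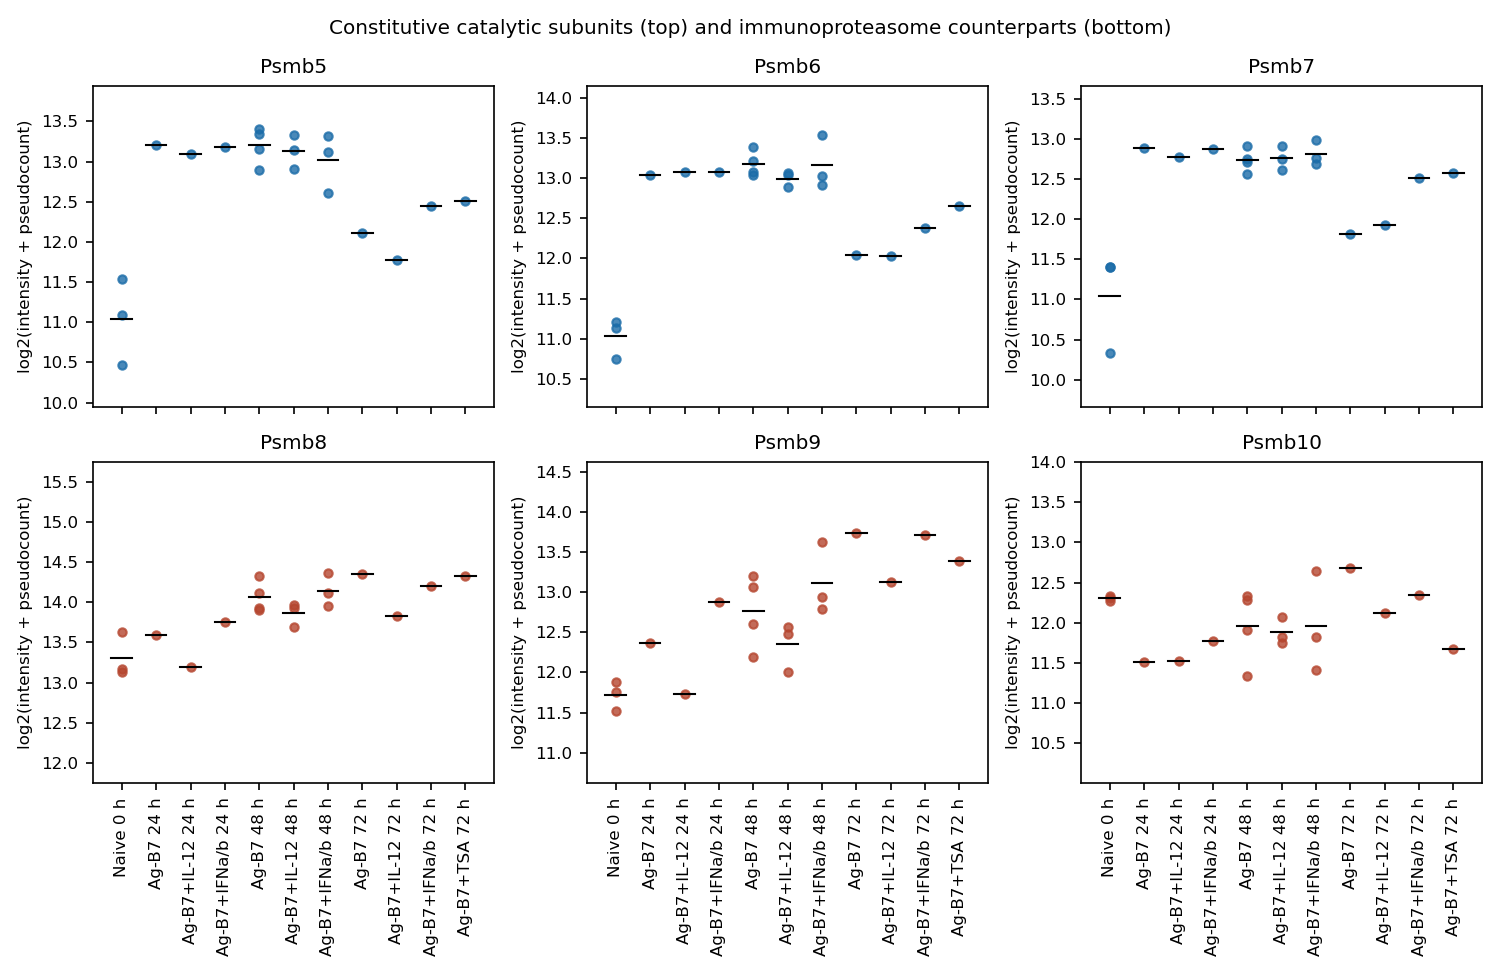
Log2(intensity + 46.4) on every array for the constitutive catalytic genes (top) and their immunoproteasome counterparts (bottom), by group on the horizontal axis. Points are arrays, lines are group means, and each panel spans the same height of the log2 scale. Psmb5, Psmb6 and Psmb7 are high at 24 h and 48 h and lower at 72 h, whereas Psmb8 and Psmb9 are at 14.35 and 13.73 on the Ag-B7 array at 72 h.

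Among 34 listed partners of the ubiquitin and proteasome system, 22 were tested, of which 10 were called higher and 4 lower after 48 h of Ag-B7. Of all genes, 26.1% were called higher and 35.6% lower. The median log2 difference of the list was 0.48, well below that of the proteasome genes. Only the changes of at least 2-fold, 5 higher and 1 lower, and Nfe2l1 are named below. Pomp, the chaperone that completes the 20S core, read 12.12, 11.38 and 11.52 in naive cells and 13.63, 13.86, 13.79 and 13.68 after Ag-B7. It rose 4.19-fold (2.07 ± 0.17, limma adjusted p = 8.73e-08). The genes of the 2 deubiquitinases that dock on the 19S particle also rose, Uchl5 by 1.98 ± 0.23 and Usp14 by 1.42 ± 0.23. Ube2n, a ubiquitin-conjugating enzyme, rose by 1.37 ± 0.19 and Ecpas, a proteasome-binding scaffold, by 1.06 ± 0.19. Ufd1, a cofactor of the VCP segregase, was lower, at a mean of 9.22 against 10.22 (limma adjusted p = 0.000833), but 0.77 higher and not called with spike-in scaling. Nfe2l1, named after its values were seen, read 11.16, 11.51 and 11.31 before and 10.11, 10.75, 10.56 and 10.93 after (-0.74 ± 0.20, limma adjusted p = 0.00467). Its difference was -0.31 and not called with median centring, and 1.03 with spike-in scaling.

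With IL-12 or IFNa/b added for 48 h, most members again stood above naive cells, and none differed from Ag-B7 alone past the threshold. Against naive cells 34 genes were higher and 1 lower with IL-12 (median 1.38, with 24.8% of all genes called higher and 34.0% lower), and 35 were higher and 1 lower with IFNa/b (median 1.53, with 25.3% and 33.1% of all genes). These comparisons share the naive arrays with that of Ag-B7 alone. No member was called between IL-12 and Ag-B7 alone at 48 h, where 0.621% of all genes were called either way, and 0 members were at an unadjusted p below 0.05 (5.8% of all genes were). The median difference was -0.03 and the range -0.35 to 0.84. No member was called between IFNa/b and Ag-B7 alone, with 0.43% of all genes called and 0 members at an unadjusted p below 0.05 (limma; 4.55% of all genes were), and differences ran from -0.57 to 0.38. These comparisons and the intervals below took the arrays as unpaired, although some arrays of different groups deviated together, as described under the processing. A fit that follows the Ag-B7 and IFNa/b pairs was not run.

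Psmb5 read 13.33, 13.15 and 12.90 with IL-12 and 13.32, 12.61 and 13.12 with IFNa/b, both overlapping with Ag-B7 alone. Psmb6 read 13.06, 13.04 and 12.89 with IL-12 and 13.54, 13.03 and 12.92 with IFNa/b. Psmb7 read 12.91, 12.75 and 12.62 with IL-12 and 12.98, 12.68 and 12.76 with IFNa/b. The difference from Ag-B7 alone was -0.07 (95% interval -0.57 to 0.43) for Psmb5 with IL-12 and -0.19 (-0.69 to 0.32) with IFNa/b. Intervals of this width stayed inside a 2-fold change either way for 38 of 41 genes with IL-12 and for 39 with IFNa/b. They stayed inside a 1.5-fold change for 24 genes in each case, so smaller shifts were not resolved. Psmd2, Psmg2 and, with IL-12, Psmd10 had the wider intervals.

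Between IL-12 and IFNa/b no member was called either (0.94% of all genes were called), and 2 were at an unadjusted p below 0.05 in limma, as were 4.83% of all genes. The arrays of the groups did not overlap for 4 of the 41 genes and for 12.6% of all genes. Psmg1 read 11.20, 11.64 and 11.28 with IL-12 and 11.78, 12.03 and 11.78 with IFNa/b, without overlap (-0.49 ± 0.21, limma adjusted p = 0.835). The dim gene Psmd2 read up to 8.34 with IL-12 and 6.65, 6.91 and 5.87 with IFNa/b (1.41 ± 0.60, limma adjusted p = 0.835). Its lowest IL-12 array lay only 0.096 above its highest IFNa/b array.

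At 24 h the members already stood at about their 48 h level, as far as 1 array per group can show. Above all 3 naive arrays were 36 of the 41 genes with Ag-B7 alone (32.8% of all genes), 35 with IL-12 (32.4%) and 36 with IFNa/b (32.6%). With Ag-B7 alone 31 genes were at least 2-fold above the naive mean (19.3% of all genes). The medians were 1.50, 1.53 and 1.54, and no replicate check exists at this time. Psmb5 stood at 13.20, 13.10 and 13.18 on the 24 h arrays of Ag-B7 alone, IL-12 and IFNa/b, and Psmd12 at 11.86, 11.74 and 11.84. These values lay inside the range of the 48 h arrays of Ag-B7 alone for Psmb5, and near its upper end or above it for Psmd12. From 24 h to 48 h of Ag-B7 alone the median of the members moved by -0.03.

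Psme3 was the exception to this plateau. It stood at 12.91 with Ag-B7 alone, 13.21 with IL-12 and 12.96 with IFNa/b at 24 h, above every naive array. By 48 h it was back at 11.09 to 12.12 with Ag-B7 alone, 11.08 to 11.43 with IL-12 and 11.39 to 12.09 with IFNa/b. At 72 h it read 10.25, 10.18 and 10.66, below every naive array. In each of the 3 series Psme3 was the one member that differed by at least 2-fold downward between 24 h and 48 h, by -1.40 with Ag-B7 alone, -1.91 with IL-12 and -1.29 with IFNa/b, where 1.54%, 2.42% and 0.971% of all genes did so.

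**Figure D4:**
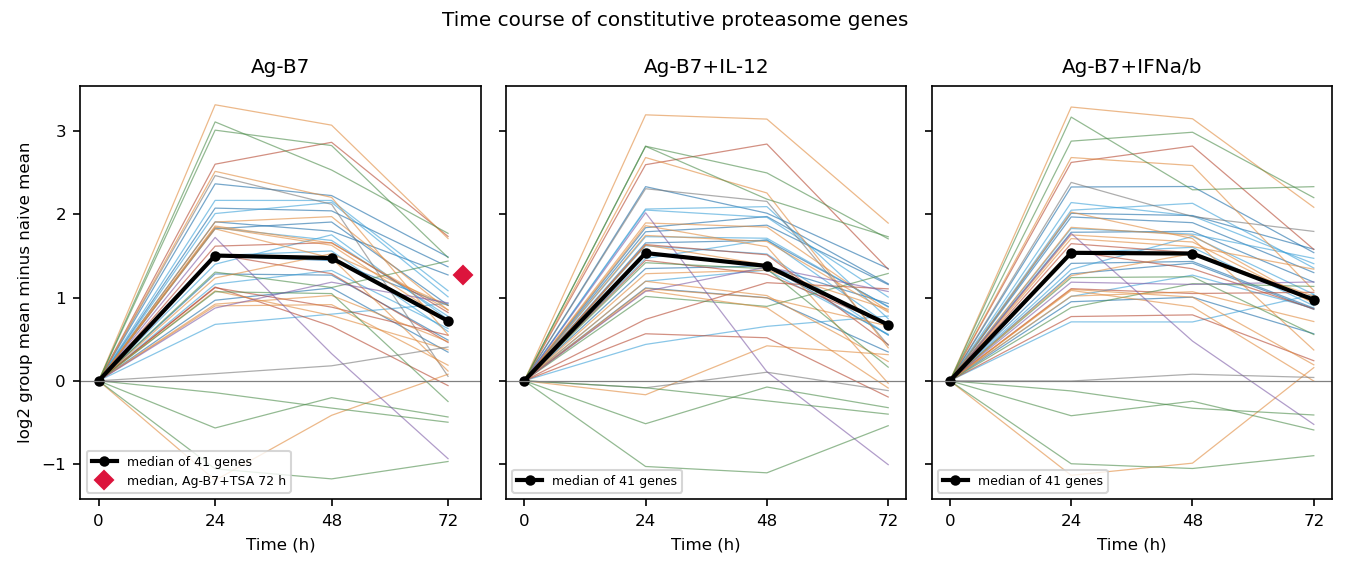
Group mean of each of the 41 genes (thin lines, coloured by role as in the heatmap) relative to its naive mean on the log2 scale, against time in hours, for Ag-B7 alone, with IL-12 and with IFNa/b. The black line is the median of the genes, at 1.50, 1.48 and 0.72 for Ag-B7 at 24, 48 and 72 h, and the diamond, drawn to the right of 72 h, is the median with TSA at 72 h (1.27).

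By 72 h the levels had come part of the way back. With Ag-B7 alone 12 of 41 genes were at least 2-fold below their 48 h mean (6.59% of all genes were), and 35 were below all 4 arrays at 48 h (24.9% of all genes). With IL-12 these counts were 11 (6.39%) and 34 (26.6%), and with IFNa/b 5 (4.2%) and 31 (27.0%). The median difference of the members was -0.77 with Ag-B7 alone, -0.79 with IL-12 and -0.56 with IFNa/b, while the median over all genes was 0.17, 0.16 and 0.10. The 72 h groups are single arrays, so these differences have no replicate check. The counts past 2-fold depend on the scaling. They were 22, 22 and 9 for Ag-B7 alone, IL-12 and IFNa/b with median centring, and 26, 6 and 3 with spike-in scaling.

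Psmd7 fell furthest among the subunits with Ag-B7 alone, from a range of 12.38 to 13.04 at 48 h to 11.15 at 72 h (-1.65), and it read 10.99 with IL-12 and 11.68 with IFNa/b. Psmb5 read 12.12 with Ag-B7 alone, 11.78 with IL-12 and 12.44 with IFNa/b at 72 h. Psmb6 read 12.04, 12.04 and 12.38 on the same arrays, and Psmb7 11.82, 11.93 and 12.52. All of these lay below the 48 h arrays of their own group and above the naive arrays. Psmc1 and Psmd12, at 11.12 and 10.26 with Ag-B7 alone, also stood between their naive and 48 h ranges.

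Some members did not take part. Psmb1 read 13.08, 12.93 and 13.19 at 72 h, inside or above its 48 h range of 12.70 to 13.15 with Ag-B7 alone. Psmd10 (9.67, 9.52 and 9.36) and Psmg3 (10.40, 10.83 and 10.47) were also not below their 48 h ranges. Psmb8 and Psmb9 stood at 14.35 and 13.73 with Ag-B7 alone at 72 h, each above all 4 of its 48 h arrays, though Psmb8 only just (highest 48 h array 14.33). Psmb8 read 13.82 with IL-12 and 14.21 with IFNa/b at 72 h, inside the 48 h ranges of those groups, and Psmb9 read 13.13 and 13.72, above them. Relative to naive cells, 10 of the 41 genes were still at least 2-fold higher at 72 h of Ag-B7 alone (13.3% of all genes), and 30 were above all naive arrays (32.0% of all genes). The median difference from naive at 72 h was 0.72 with Ag-B7 alone, 0.67 with IL-12 and 0.97 with IFNa/b.

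Cytokine-treated arrays at 72 h were also set against Ag-B7 alone at that time. With IFNa/b 35 of 41 genes read higher than with Ag-B7 alone (46.4% of all genes did), by a median of 0.24, and 1 by at least 2-fold (3.93% of all genes). That gene was Psmc3ip, at 8.22 against 6.48. With IL-12 the median difference was -0.03, and 0 genes reached 2-fold in either direction (5.22% of all genes were at least 2-fold higher and 4.14% lower).

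On the array with TSA at 72 h the constitutive proteasome genes read higher than on that with Ag-B7 alone. At least 2-fold higher were 8 of the 41 genes (7.09% of all genes), 0 were at least 2-fold lower (8.97% of all genes), and 36 read higher to any extent (50.7% of all genes). The median difference was 0.47, beside 0.01 over all genes. Of the 4 arrays at 72 h, that with TSA held the highest value for 30 of the 41 genes, against 34.7% of all genes. Each group is 1 array, so the difference compares 2 libraries and has no replicate check.

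Psmd1, which encodes a large scaffold subunit of the 19S base, read 12.69 with TSA and 10.90 with Ag-B7 alone (1.79), and its 48 h values with Ag-B7 alone were 12.40, 12.11, 12.22 and 12.33. Psme3 read 11.94 against 10.25 (1.69), which is within its 48 h range. Psmb2 (1.23), Psmd7 (1.16), Psmb3 (1.13), Psmd3 (1.08), Psmg1 (1.02) and Psmc3ip (1.30) were the other genes past 2-fold. Of the catalytic genes, Psmb5 read 12.51 against 12.12, Psmb6 12.65 against 12.04 and Psmb7 12.58 against 11.82. Psmd10 (-0.60) and Psmb1 (-0.53) read lower with TSA and both were among the 5 genes that had read above their 48 h mean at 72 h of Ag-B7 alone. Set against the Ag-B7 arrays at 48 h, the TSA array was lower by a median of 0.22 and below all 4 arrays for 24 of the 41 genes (24.3% of all genes). Relative to naive cells its median was 1.27, with 24 genes at least 2-fold higher (15.8% of all genes).

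**Figure D5:**
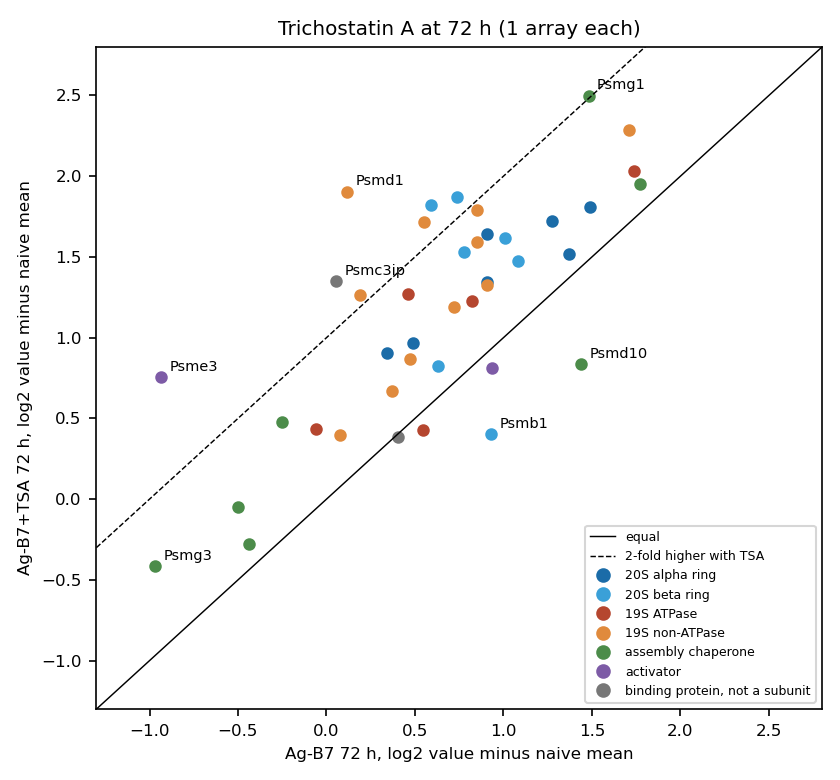
Log2 value minus the naive mean on the single array with TSA at 72 h (vertical axis) against that with Ag-B7 alone at 72 h (horizontal axis) for the 41 genes, coloured by role. The solid line marks equal values and the dashed line a 2-fold higher value with TSA. Of the 41 points, 36 lie above the solid line, with Psmd1 (1.79) and Psme3 (1.69) the farthest above it and Psmd10 (-0.60) the farthest below.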

How the data were processed

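For each of 20 arrays the authors deposited linear intensity values, 1 per probe set, made with MAS5 according to the submitters' processing notes. Its version and target were not given in the sources used here. Each deposited array had a common trimmed mean (999.76 to 999.86 with 2% left out at each end), so a change in the total RNA of a cell cannot be seen, and array medians ran from 232 to 507. Signals carry no counts, and the number of arrays limits the precision.

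Values were taken as log2(value + 46.4), where the pseudocount is the median over arrays of the 20th percentile, which understates the change of dim genes. Genes were kept if 3 or more of the 13 replicated arrays read above the array's 40th percentile. A single model over the 4 replicated groups was fitted with limma 3.58.1 under R 4.3.3, using a trended prior, two-sided tests and Benjamini-Hochberg adjustment over 6279 genes. The fit was also run on simulated data with independent noise on each array. That simulation does not hold the shared deviations between arrays described below, so it is no check of the p-values under them. Groups of 1 array were described without a test. Values on every naive and 48 h Ag-B7 array were given for the catalytic genes and for the largest and smallest change of each role. For the catalytic genes they were also given on the 48 h arrays with IL-12 and IFNa/b. The members and gene lists were chosen with earlier results of these data known.

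Same-numbered arrays of Ag-B7 and of Ag-B7 with IL-12 deviated together (r = 0.28 in each of 3 pairs). Other pairs of groups did not all do so. Same-numbered arrays of Ag-B7 and of Ag-B7 with IFNa/b had r = 0.11, -0.04 and -0.10. Ag-B7 replicates 2, 3 and 4 instead deviated together with IFNa/b replicates 1, 2 and 3 (r = 0.28, 0.28 and 0.45). The block by replicate number was fitted as an alternative but cannot take up those pairs. Other alternatives were the filter, the scaling, the pseudocount, the mean of a gene's probe sets and leaving out arrays. Promoter windows came from RefSeq (GRCm38.p6). Symbols are those of the platform annotation.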

Additional observations from a re-analysis of the deposited data

How the results depend on the processing

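The count of members called higher after Ag-B7 was 35 with no filter, quantile normalization (2 lower), either other pseudocount and the replicate block (where 1 was lower and the median 1.50), 36 with median centring, 40 with spike-in scaling and 30 with the mean of probe sets. The block changed no call of a member between the stimulated groups. It does not follow the Ag-B7 and IFNa/b arrays that deviated together, so it is no check of that pairing. Leaving out 1 array gave 34 to 35 genes higher and medians of 1.36 to 1.63 for Ag-B7, 32 to 35 and 1.23 to 1.56 for IL-12, and 33 to 35 and 1.34 to 1.65 for IFNa/b. The medians against naive, in the same order, were 1.90, 1.80 and 1.93 with median centring, 3.24, 2.95 and 3.38 with spike-in scaling, and 1.16, 1.12 and 1.15 without naive replicates 2 and 3, an alternative chosen after seeing the data. Spike-in scaling moved the median of IL-12 against Ag-B7 to -0.23 and against IFNa/b to -0.32. It turned Psmd2 (1.35), Psmd9 (1.57), Psmg4 (1.44) and Psmg3 (0.59) upward, and it moves all genes, whose median became 1.54. The mean of probe sets turned Psmb4 (-0.22). That setting, for the ratios chosen after seeing the data, also turned the Psmb5 over Psmb8 change to -0.62 for Ag-B7, -0.46 for IL-12 and -0.70 for IFNa/b.

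At 24 h the medians were 2.04, 1.99 and 2.03 with median centring and 3.53, 3.64 and 3.40 with spike-in scaling, 1.27 and 1.38 for Ag-B7 and IL-12 with quantile normalization, and 1.38 for IFNa/b with 4 times the pseudocount. From 48 h to 72 h, median centring gave 22, 22 and 9 genes at least 2-fold lower and medians of -1.03, -1.04 and -0.76, and spike-in scaling 26, 6 and 3 genes and -1.08, -0.55 and -0.36. The median with TSA against Ag-B7 alone was 0.68 with spike-in scaling. Relative to the median of all genes it was 0.45 under that scaling and as deposited. The causes of these shifts were not tested. Of 902 pairs of a member and a setting for Ag-B7 against naive cells, 13 (7 genes) lost the call and 8 (5 genes) gained one, including 5 that turned sign, and in 881 the call did not change.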
